A study of Tupaia belangeri chinensis with 36 samples.

Results

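The features described here are noncoding transcripts of the tree shrew annotation that carry the name of a gene for a synaptic adhesion molecule. They were chosen by name alone. A feature was a member if its name began with LINC- or contained -AS- and if the gene symbol in it began with CNTN, NRXN, NLGN, LRRTM, SLITRK, LRFN, FLRT, ADGRL, TENM, LSAMP, NEGR1, OPCML or NTM. The rule found 341 members among 76871 annotated features, of which 54371 carried a LINC or AS name. They were 151 AS and 190 LINC features, named after 35 gene symbols. No measured value entered the choice.

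RNA had been sequenced from layers of the fetal cortex of the Chinese tree shrew (Tupaia belangeri chinensis), cut from Nissl-stained frozen sections with a laser microscope. The germinal layers, which hold dividing progenitors, were the ventricular zone (VZ) and the inner and outer subventricular zones (ISVZ and OSVZ). The neuron-rich layers were the intermediate zone (IZ) with its migrating neurons, the cortical plate (CP) and the marginal zone (MZ). Each of these 6 layers gave 2 libraries at embryonic day 28 (E28). The E37 material comprised 3 IZ, 2 MZ, 1 undivided CP, 2 inner CP (CPi) and 2 outer CP (CPo) libraries, and the germinal layers of that stage were not analysed here. The E42 material comprised 1 VZ library and a pair from every other layer, with the plate again cut into CPi and CPo. The second E42 VZ file held the same values as the second E28 VZ file, the only identical pair among 630, and was left out, so that 35 libraries remained. Which of the labels is right is not known. The values were kept under the E28 label, so the stage of the second E28 VZ library is uncertain. The labels give no genotype or treatment for any group, and they do not say whether libraries of a layer came from separate embryos. The study states in general that its experiments had biological replicates, without tying this to single libraries, so the p-values measure the spread between these libraries.

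Synaptic adhesion molecules sit in the membranes on either side of a synapse and bind each other across the cleft. Neurexins on the axon bind neuroligins and LRRTM proteins on the dendrite, SLITRK and LRFN proteins bind receptor tyrosine phosphatases, and latrophilins (ADGRL) bind teneurins (TENM) and FLRT proteins. Contactins, the contactin-associated proteins (CNTNAP) and the IgLON group of LSAMP, NEGR1, OPCML and NTM are further adhesion molecules of neurons, and FLRT proteins also act in the migration of cortical neurons. The proteins have these roles; what the numbered noncoding transcripts do is not given by their names. The protein-coding features carry identifiers without symbols, so neither the genes after which the members are named nor marker genes of the layers could be read beside them.

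The libraries held between 17932690 and 102042743 counts on features, with a median of 31756620. LINC and AS features took 1.47% to 2.26% of these, and the members together had 511 to 5440 counts in a library. Between 33 and 149 of the 341 members had a count in a library. Levels are given as CPM, read counts divided by the scaled library size and not by transcript length, so a level is compared between samples, and an order of features by CPM is one of read numbers only. A count of 3, used as the floor, corresponds to 0.0287 to 0.167 CPM. Reads ambiguous between features, which were not counted, made up 15.0% to 19.1%. Whether strand was kept by the library kit and used in counting is not stated, so reads of an AS feature and of a gene that overlaps it on the other strand cannot be told apart.

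Most members were silent or nearly so in these layers. No count in any library was found for 85 of the 341, and 256 had at least 1. The share without a count, 24.9%, was below that of LINC and AS features (35.3%) and of all features (28.7%). Only 65 members (19.1%), 37 AS and 28 LINC, had enough counts for testing, against 19.9% of all LINC and AS features and 34.9% of all features. These 65 are not the set as a whole, nor simply its best detected members. The filter went by the smallest group, which had 1 library, so enough counts in 1 library could admit a member. NTM-AS-4, with 19 counts in 4 libraries, was tested, whereas LINC-SLITRK3-2, with 58 counts in 18 libraries, was not. A member that passed through the layers in which it was high had to differ to some degree. The tested members came from all 14 name groups, in numbers from 1 of 8 for LSAMP, 1 of 18 for NEGR1 and 1 of 12 for OPCML to 10 of 27 for the neurexins, 9 of 26 for SLITRK and 9 of 63 for CNTNAP. At least 1 of the 11 comparisons below was passed by 29 of them (44.6%), against 39.5% of the tested LINC and AS features and 64.2% of all tested features.

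**Figure D1:**
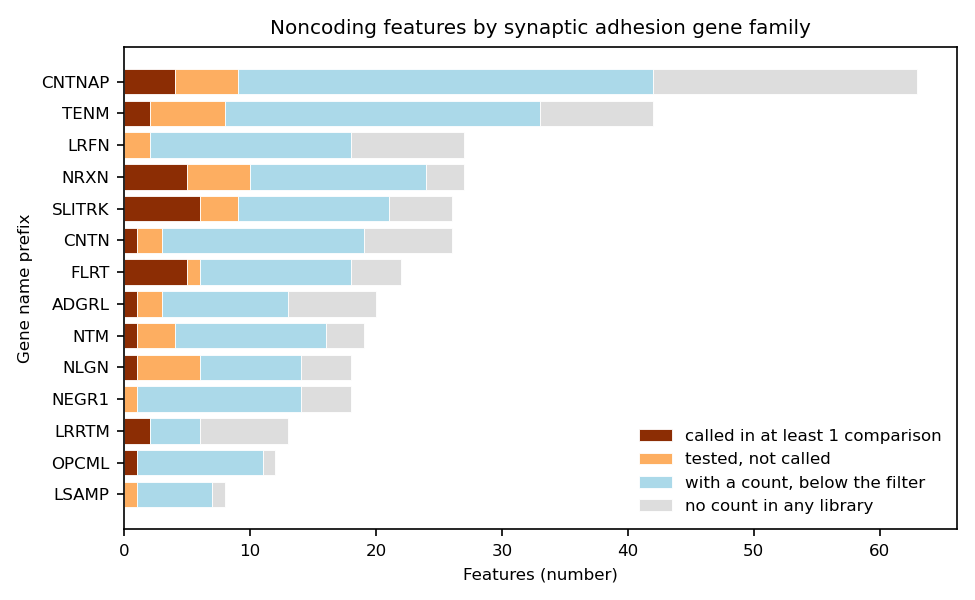
Number of members (x axis) per gene name group (y axis), divided by color into those called in at least 1 comparison, tested but not called, detected below the filter, and without a count in any of the 35 libraries. CNTNAP had the most members (63, of which 4 were called), whereas SLITRK had 6 called of 26; the 29 called in all are 44.6% of the tested members, against 64.2% of all tested features.

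Few members carried most of the counts. NRXN2-AS-1, with the most, had 19.4% of the 57534 counts on members, the first 3 had 49.9% and the first 10 had 74.9%. Its mean over the 35 libraries was 9.08 CPM. By read numbers it was followed by FLRT2-AS-1 (8.31 CPM), SLITRK3-AS-1 (5.64 CPM), LINC-LRRTM4-8 (3.66 CPM) and LRRTM4-AS-4 (1.79 CPM). By name group, neurexins took 24.5%, FLRT 20.4%, SLITRK 20.2% and LRRTM 11.4% of the counts. In the remaining groups the member with the highest mean was NLGN4X-AS-2 (1.34 CPM), LINC-OPCML-1 (1.29 CPM), CNTN5-AS-4 (0.830 CPM), TENM1-AS-1 (0.816 CPM), CNTNAP3-AS-2 (0.566 CPM), ADGRL2-AS-3 (0.534 CPM) or LINC-NTM-11 (0.109 CPM). In 3 groups even this member was close to absence: LRFN5-AS-1 had a mean of 0.0294 CPM, NEGR1-AS-3 of 0.0266 CPM and LSAMP-AS-1 of 0.0200 CPM, with counts in 11, 10 and 8 libraries. None of the 4 last-named members passed any comparison.

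**Figure D2:**
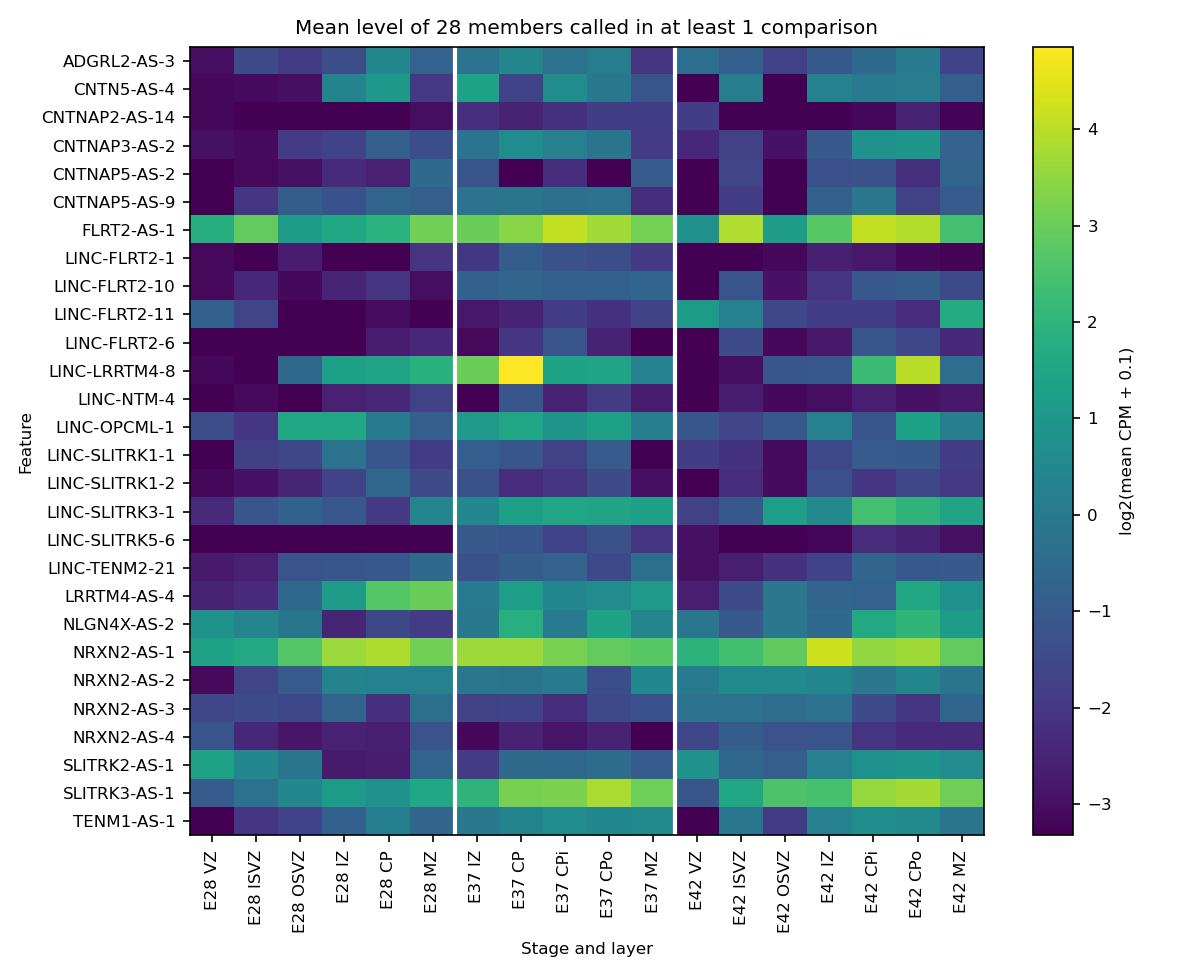
Mean level as log2(mean CPM + 0.1), shown by color, of 28 members called in at least 1 comparison (rows) in each of the 18 combinations of stage and layer (columns, with white lines between stages). NRXN2-AS-1, FLRT2-AS-1 and SLITRK3-AS-1 are bright in most columns, whereas SLITRK2-AS-1 is bright in the E28 VZ and again in the E42 VZ, CPi and CPo.

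The first comparison asked which members differed between neuron-rich and germinal layers at E28, with each layer weighted alike. Of the 65 tested members, 16 were higher in the IZ, CP and MZ and 2 were higher in the VZ, ISVZ and OSVZ, by edgeR's quasi-likelihood test with Benjamini-Hochberg adjustment over all 26858 features at a threshold of 0.05. Among all features 17.1% were called higher and 18.5% lower in the neuron-rich layers, and among LINC and AS features 10.3% and 6.35%. The median log2 fold change of the members was 1.13, against 0.05 for all features and 0.30 for LINC and AS features. A second list of 408 noncoding features named after other synaptic adhesion genes, such as CADM, PTPRD and DSCAM, also had 65 tested, with 11 called higher and 2 lower and a median of 0.88. The summed level of all members was 13.0 to 24.7 CPM in the 6 germinal libraries and 35.1 to 49.3 CPM in the 6 neuron-rich libraries, and the groups did not overlap. In these bulk samples, fewer cells of a type and less RNA per cell cannot be told apart.

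Of the neurexin-named members, NRXN2-AS-1 had 1.76, 3.55 and 7.89 CPM as the lowest, median and highest level in the germinal libraries of E28 and 2.87, 11.7 and 22.0 CPM in the neuron-rich ones. The groups overlapped, and the log2 fold change was 1.67 ± 0.34 (SE; adjusted p = 0.000287). NRXN2-AS-2 had 0, 0.204 and 0.468 CPM in the germinal libraries and 0.311, 1.12 and 2.00 CPM in the neuron-rich ones. Its log2 fold change was 3.24 ± 0.67 (adjusted p = 0.000238), and it moved to 2.62 without the first IZ, 3.85 without the first ISVZ and 4.02 without the first VZ library.

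Of 12 members named after LRRTM4, a postsynaptic partner of neurexins, 2 had enough counts for testing, and both were higher in the neuron-rich layers. LRRTM4-AS-4 had 0, 0.135 and 0.955 CPM as the lowest, median and highest germinal level and 0.820, 2.26 and 14.2 CPM in the neuron-rich libraries. Its log2 fold change of 4.84 ± 0.77 (adjusted p = 1.89e-05) was 3.85 without the second CP, 4.13 without the second MZ and 6.36 without the second VZ library. The second libraries of CP and MZ, at 12.0 and 14.2 CPM, stood far above the first, at 0.820 and 1.82 CPM. LINC-LRRTM4-8 showed the same split, with 4.87, 4.08 and 7.05 CPM in the second CP, IZ and MZ libraries and 0.410, 0.580 and 0 CPM in the first. It was at 0 in both ISVZ libraries and the ratio of mean CPM was 14.5 (adjusted p = 0.00413).

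SLITRK proteins are postsynaptic, and the members named after them went in both directions at E28. SLITRK3-AS-1 had 0.321, 0.730 and 1.68 CPM as the lowest, median and highest germinal level and 1.05, 2.26 and 2.91 CPM in the neuron-rich libraries, with a log2 fold change of 1.55 ± 0.24 (adjusted p = 5.69e-06). SLITRK2-AS-1 was the reverse. It had 2.62 and 2.40 CPM in the VZ, 1.55 and 1.00 CPM in the ISVZ and 1.18 and 0.434 CPM in the OSVZ, against at most 0.108 CPM in the IZ and CP libraries and 0.607 and 0.441 CPM in the MZ. The log2 fold change was −3.49 ± 0.58 (adjusted p = 1.13e-05), and −4.88 without the second CP library, since the first then left the CP at 0. The groups overlapped only between the second OSVZ library and the MZ.

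The other member that was higher in germinal layers at E28 was NLGN4X-AS-2, named after a neuroligin. It had 2.26 and 1.16 CPM in the VZ, 1.80 and 0.639 CPM in the ISVZ and 1.16 and 0.463 CPM in the OSVZ, and 0.0345 to 0.325 CPM in the 6 neuron-rich libraries. The groups did not overlap, and the log2 fold change was −2.94 ± 0.44 (adjusted p = 2.7e-06). It stayed between −3.34 and −2.64 with single libraries left out.

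Contactin and contactin-associated names gave 4 of the 16 higher members. CNTN5-AS-4 had at most 0.0550 CPM in a germinal library (4 counts in all 6) and up to 3.33 CPM in the neuron-rich ones, although the first MZ library had 0. Its log2 fold change was 4.97 ± 1.06 (adjusted p = 0.000543). CNTNAP3-AS-2 had 0, 0.0340 and 0.174 CPM as the lowest, median and highest germinal level and 0.104, 0.269 and 0.697 CPM in the neuron-rich libraries, a log2 fold change of 2.69 ± 0.67 (adjusted p = 0.00187). CNTNAP5-AS-2 and CNTNAP5-AS-9 were at 0 in both VZ libraries, and their ratios of mean CPM were 17.6 (adjusted p = 0.00302) and 2.30 (adjusted p = 0.0106). CNTNAP5-AS-9 was however at 0.743 CPM in the first OSVZ library, above its highest neuron-rich level of 0.697 CPM.

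Of the teneurin-named members, TENM1-AS-1 had 0 to 0.289 CPM in germinal and 0 to 1.35 CPM in neuron-rich libraries, a ratio of mean CPM of 5.78 (adjusted p = 0.000224). The CP, at 0.779 and 1.35 CPM, and the IZ, at 0.612 and 0.345 CPM, lay above every germinal library. The MZ had 0 and 1.06 CPM. Without the second MZ library, which leaves the MZ at 0, the call was lost and the fitted log2 fold change fell from 3.72 to 1.33. Also higher were LINC-TENM2-21, ADGRL2-AS-3, LINC-SLITRK1-1, LINC-SLITRK1-2 and LINC-NTM-4, with adjusted p between 0.0179 and 0.0490. With the replicate number as a block, LINC-TENM2-21 (adjusted p = 0.0490) did not pass and LINC-TENM2-18 was higher (adjusted p = 0.0423). No tested member named after LRFN, FLRT, LSAMP, NEGR1 or OPCML was called by edgeR at E28, where FLRT2-AS-1 ranged over 0.463 to 8.69 CPM in the germinal layers and 2.35 to 10.1 CPM in the neuron-rich ones. DESeq2 also called TENM2-AS-4 higher (adjusted p = 0.0368) and LINC-FLRT2-11 lower in the neuron-rich layers (adjusted p = 0.0342). LINC-FLRT2-11 had 0.255 and 0.717 CPM in the VZ, 0.216 and 0.244 CPM in the ISVZ and at most 0.041 CPM in the neuron-rich libraries.

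**Figure D3:**
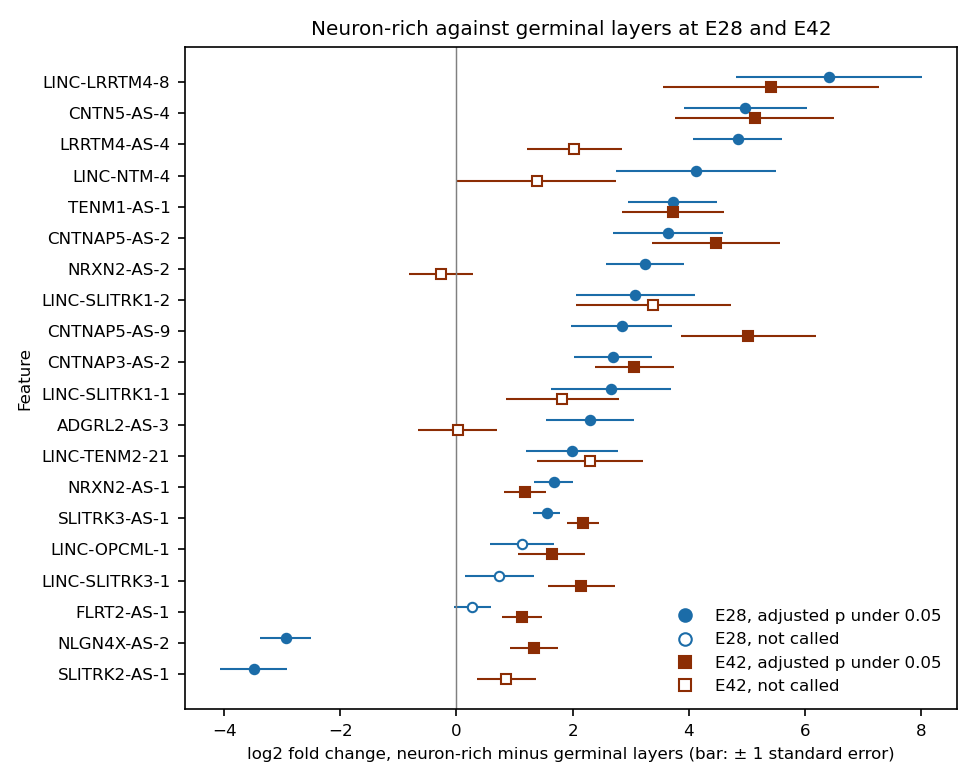
Log2 fold change (x axis, neuron-rich minus germinal layers, bars ± 1 standard error) at E28 (circles) and E42 (squares) of 20 members called at either stage (y axis); filled symbols passed an adjusted p of 0.05. NLGN4X-AS-2 lies at −2.94 at E28 and at 1.33 at E42, whereas SLITRK3-AS-1 lies above 0 at both (1.55 and 2.18); wide bars belong to members with few counts in the germinal layers, whose fitted values depend on the prior count.

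The same comparison at E42 had 12 members higher in the neuron-rich layers and 0 lower, with a median log2 fold change of 1.22 (1.18 with members at 0 on one side set to the floor). On the lower side, 1 member had an unadjusted p under 0.05 in edgeR and 0 in DESeq2, which also called 0. That member was LINC-NTM-11, at 1.18 CPM in the VZ and at most 0.338 CPM elsewhere at E42 (−2.66 ± 1.10, adjusted p = 0.0703), and it passed in a fit restricted to the E42 libraries compared and with the replicate block (−2.98, adjusted p = 0.0262). Among all features, 14.4% were called higher and 15.6% lower, with a median of −0.07, and among LINC and AS features 4.73% and 7.31%, with a median of −0.20. The second list had 2 higher and 2 lower of 65, with a median of 0.58. The summed member level was 20.0 to 41.0 CPM in the 5 germinal libraries and 40.9 to 96.5 CPM in the 8 neuron-rich ones. With only 1 VZ library at this stage, that layer was assumed to vary like the others.

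SLITRK3-AS-1 was at 0.355 CPM in the VZ, 3.00 and 2.83 CPM in the ISVZ and 5.76 and 6.02 CPM in the OSVZ of E42. The neuron-rich libraries had 5.10, 10.4 and 14.3 CPM as lowest, median and highest, so that the OSVZ reached the level of the IZ (5.10 and 5.89 CPM). Its log2 fold change was 2.18 ± 0.27 (adjusted p = 1.65e-07), and 1.07 (adjusted p = 0.00147) without the VZ library. LINC-SLITRK3-1 had 0.207 CPM in the VZ, 0.407 and 0.340 CPM in the ISVZ, 2.24 and 2.34 CPM in the OSVZ and 0.977 to 6.07 CPM in the neuron-rich libraries (log2 fold change 2.15 ± 0.58, adjusted p = 0.00482). For both, the OSVZ was the highest germinal layer.

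NRXN2-AS-1 had 3.82 CPM in the VZ, 4.36 and 5.87 CPM in the ISVZ and 4.68 and 9.63 CPM in the OSVZ of E42. It had 6.95, 12.0 and 22.0 CPM as lowest, median and highest neuron-rich level, a log2 fold change of 1.18 ± 0.36 (adjusted p = 0.0135). CNTNAP3-AS-2 was at 0.0249 to 0.216 CPM in the germinal libraries and 0.167 to 2.31 CPM in the neuron-rich ones (3.06 ± 0.68, adjusted p = 0.000672). NLGN4X-AS-2 was now higher in the neuron-rich layers, with 0.829 CPM in the VZ, 0.407 and 0.376 CPM in the ISVZ, 0.889 and 0.821 CPM in the OSVZ and 0.492, 2.57 and 4.40 CPM as lowest, median and highest neuron-rich level (1.33 ± 0.41, adjusted p = 0.0137).

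The test weighted layers alike. Members with an empty germinal layer at E42 are given by ratios of mean CPM, which weight a layer by its number of libraries. They were 6.60 for CNTNAP5-AS-9 (adjusted p = 0.00119), 3.39 for CNTNAP5-AS-2 (adjusted p = 0.00245), 2.23 for CNTN5-AS-4 (adjusted p = 0.00549), 36.2 for LINC-LRRTM4-8 (adjusted p = 0.0355) and 3.02 for TENM1-AS-1 (adjusted p = 0.00135). LINC-LRRTM4-8 was high in the plate alone, at 2.55 to 25.6 CPM. It had 0.571 and 0.167 CPM in the IZ and 1.17 and 0.145 CPM in the MZ. These overlapped with the OSVZ, at 0.309 and 0.398 CPM. CNTN5-AS-4 was at 0 in the VZ and both OSVZ libraries but at 1.46 and 0.519 CPM in the ISVZ, within reach of the IZ (0.965 and 1.31 CPM). Without the VZ library, in which TENM1-AS-1 was at 0, its fitted log2 fold change fell from 3.73 to 1.54 and it did not pass (adjusted p = 0.0630), and CNTNAP5-AS-9 went from 5.02 to 4.12 and CNTNAP5-AS-2 from 4.46 to 3.50. FLRT2-AS-1 (1.13 ± 0.35, adjusted p = 0.0141) and LINC-OPCML-1 (1.64 ± 0.58, adjusted p = 0.0327) were the remaining 2. FLRT2-AS-1 was not higher in every neuron-rich layer than in every germinal one. The ISVZ, at 13.2 and 15.9 CPM, lay above the IZ (8.43 and 4.66 CPM) and the MZ (5.44 and 4.87 CPM). The plate had 13.4 to 17.7 CPM, the VZ 1.66 CPM and the OSVZ 1.93 and 2.34 CPM.

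Of the members higher in neuron-rich layers, 8 were called at both stages, 50% of the 16 at E28 and 66.7% of the 12 at E42. Among all features the shares were 53.8% and 63.9%, and among LINC and AS features 26.0% and 56.3%. The 8 were SLITRK3-AS-1, NRXN2-AS-1, LINC-LRRTM4-8, CNTN5-AS-4, CNTNAP3-AS-2, CNTNAP5-AS-2, CNTNAP5-AS-9 and TENM1-AS-1. NLGN4X-AS-2 was the only member called in opposite directions. It was lower at E28 and higher at E42, as were 153 of all features (3.07% of those lower at E28), and 131 further features were called higher at E28 and lower at E42.

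Whether the contrast itself changed was tested by the difference of E42 minus E28. It passed for 4 members, 2 in each direction, against 8.31% of all features called in the higher direction and 6.67% in the lower. NLGN4X-AS-2 changed by 4.28 ± 0.62 on the log2 scale (adjusted p = 1.01e-05) and SLITRK2-AS-1 by 4.35 ± 0.79 (adjusted p = 0.000208). At E42, SLITRK2-AS-1 was at 1.69 CPM in the VZ, 0.431 and 0.716 CPM in the ISVZ, 0.232 and 0.672 CPM in the OSVZ and 0.726 to 2.27 CPM in the neuron-rich layers, so that both the VZ and the CP were high. NRXN2-AS-2 changed by −3.50 ± 0.86 (adjusted p = 0.00507), with germinal levels of 0 to 0.468 CPM at E28 and 0.627 to 2.16 CPM at E42. These 3 passed in every alternative and with each library left out. With the replicate number as a block, LINC-NLGN4X-2 (adjusted p = 0.0447) and LRRTM4-AS-4 (−2.86, adjusted p = 0.0206) passed as well. The median of the 65 was 0.16, against −0.04 for all features and −0.47 for LINC and AS features, and the second list had 1 higher and 3 lower.

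**Figure D4:**
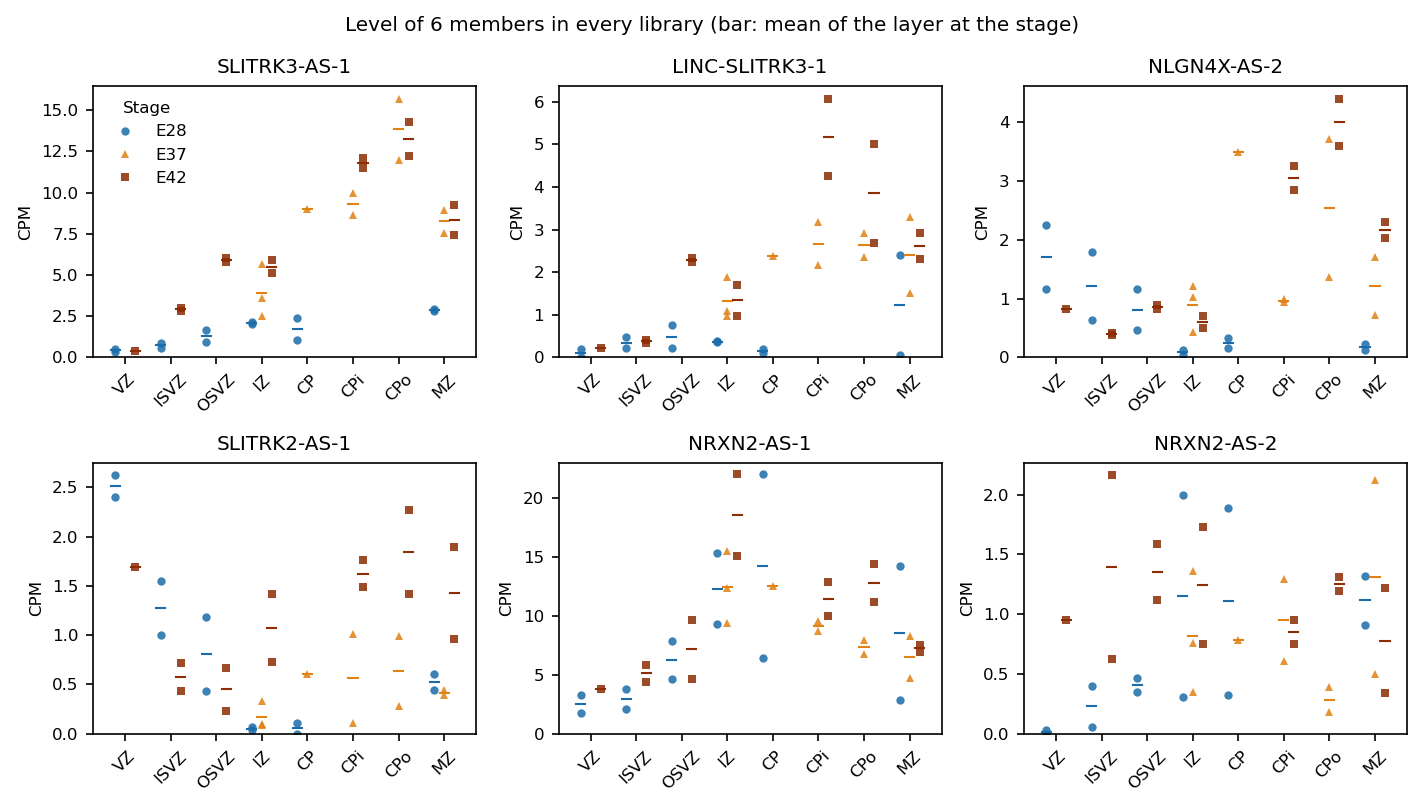
Level in CPM (y axis) of 6 members in each of the 35 libraries by layer (x axis), with symbol and color for stage and a bar at the mean of each layer and stage. NLGN4X-AS-2 and SLITRK2-AS-1 are highest in the germinal layers at E28 and rise in the cortical plate by E42 (2.84 to 4.40 CPM for NLGN4X-AS-2 in the 4 CPi and CPo libraries), and SLITRK3-AS-1 is lowest in the VZ (0.321 to 0.510 CPM) and highest in the CPo of E37 and E42 (12.0 to 15.7 CPM).

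From E28 to E37 in the neuron-rich layers, 10 members rose and 1 fell, whereas 12% of all features were called higher and 10.4% lower, and 3.42% and 7.99% of LINC and AS features. The median log2 fold change was 0.19, against 0.00 for all features and −0.26 for LINC and AS features, and 5 of the second list were higher and 3 lower. The E37 libraries also enter the comparison with E42, so the values of both steps share them.

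SLITRK3-AS-1 rose from 1.05, 2.26 and 2.91 CPM (lowest, median and highest of 6) to 2.48, 8.79 and 15.7 CPM (of 10), a log2 fold change of 1.70 ± 0.22 (adjusted p = 1.66e-06). Its rise was seen in the plate, where all 5 E37 libraries had at least 8.61 CPM and both E28 libraries at most 2.38 CPM, and in the MZ, with 7.56 and 8.96 CPM against 2.82 and 2.91 CPM. LINC-SLITRK3-1 rose by 2.29 ± 0.51 (adjusted p = 0.00164), and by 3.90 without the first E28 MZ library, which had 2.40 CPM where the other 5 neuron-rich E28 libraries had at most 0.380 CPM. NLGN4X-AS-2 rose from 0.0345, 0.146 and 0.325 CPM to 0.432, 1.12 and 3.72 CPM with no overlap (3.03 ± 0.43, adjusted p = 6.43e-06). SLITRK2-AS-1 rose by 1.54 ± 0.57 (adjusted p = 0.0490).

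FLRT2, an adhesion molecule that binds latrophilins and repels migrating neurons through Unc5 receptors, gave 4 of the 10 names. FLRT2-AS-1 rose from 2.35, 3.64 and 10.1 CPM to 6.25, 10.7 and 22.1 CPM (1.14 ± 0.30, adjusted p = 0.00724). LINC-FLRT2-10 rose from at most 0.246 CPM to 0.144, 0.490 and 0.891 CPM (2.99 ± 0.85, adjusted p = 0.0109). Its fitted value was 3.70 without the first E28 CP, 4.52 without the first E28 IZ and 3.88 without the second E28 MZ library, and it did not pass without the second of the 2 E37 MZ libraries (2.43, adjusted p = 0.0594). LINC-FLRT2-1 and LINC-FLRT2-11 had counts in 1 E28 library each, and their ratios of mean CPM were 5.43 and 18.6. LINC-SLITRK5-6 had no count in the 6 E28 libraries and up to 1.05 CPM at E37, at least 15.7-fold higher when 3 counts over the E28 group are taken as the floor (adjusted p = 0.0137). In the E37 libraries with replicate number 3, however, it had 0 CPM in the CPi, IZ and MZ and 0.0714 CPM in the CPo. The rise was thus nearly absent from that replicate number. The last to rise was CNTNAP2-AS-14, from 1 library with a count to as much as 0.302 CPM (adjusted p = 0.0269). LINC-FLRT2-1, LINC-SLITRK5-6 and CNTNAP2-AS-14 met the count filter in E37 libraries alone. High E37 values had thus admitted them to the test, and their p-values are not free of that choice.

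The member that fell was LRRTM4-AS-4, with 0.820, 2.26 and 14.2 CPM at E28 and 0.195, 1.53 and 2.41 CPM at E37 (−1.75 ± 0.57, adjusted p = 0.0290). This call did not pass without the second E28 CP (−0.76, adjusted p = 0.390), second E28 MZ (−1.04, adjusted p = 0.220) or second E28 IZ library (−1.63, adjusted p = 0.0747), nor without either E37 MZ library (adjusted p = 0.0664 and 0.0965). The count of 11 calls was 7 without the first or second E28 IZ or without either E37 MZ library. With the replicate number as a block within each stage, 8 members passed. Between stages, this block leaves differences among replicate numbers out of the error, so it is no check on them. CNTNAP2-AS-14, LINC-FLRT2-1, LINC-FLRT2-11 and SLITRK2-AS-1 were lost there, and LINC-TENM2-18, not among the 11, was lower (adjusted p = 0.0432).

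From E37 to E42 in the neuron-rich layers, 2 members rose and 1 fell, against 10.3% of all features higher and 5.3% lower. The median was 0.39 (0.38 at the floor), where LINC and AS features as a whole had 0.51 and all features 0.18, and 1 of the second list was higher. SLITRK2-AS-1 rose from 0.0864, 0.362 and 1.01 CPM to 0.726, 1.46 and 2.27 CPM (1.97 ± 0.44, adjusted p = 0.00240), and passed in every alternative and with any library left out. NRXN2-AS-4 was at 0 in both E37 MZ libraries, and its mean level was 4.98 times as high at E42 (adjusted p = 0.0217). CNTNAP2-AS-14 fell from 0 to 0.302 CPM at E37 to 0 to 0.154 CPM (adjusted p = 0.0363), a difference of a few counts that could not be fitted with a finite error once the replicate block was in the model. It was lost in 8 of the fits with 1 library left out, and it had met the count filter in an E37 IZ library alone. NRXN2-AS-4 was lost without either E37 MZ library (adjusted p = 0.0561 and 0.0816) and without the first E42 MZ library (adjusted p = 0.132). Of the 3 calls, 1 was left without either E37 MZ library or without the first E42 MZ library. With the replicate block, LINC-FLRT2-11 was higher (adjusted p = 0.0435) and LINC-LRRTM4-8 lower (−1.46, adjusted p = 0.0181).

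In the subventricular zones (ISVZ and OSVZ, 4 libraries a stage), 4 members were higher at E42 than at E28 and 1 was lower. Among all features 12.5% were higher and 9.64% lower, and among LINC and AS features 6.82% and 1.29%. The median of the 65 was 0.96 (0.50 with the 13 members at 0 on one side set to the floor), against 0.73 for LINC and AS features and 0.24 for all features. The second list had 3 higher.

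SLITRK3-AS-1 went from 0.577 and 0.883 CPM in the ISVZ and 1.68 and 0.955 CPM in the OSVZ to 3.00, 2.83, 5.76 and 6.02 CPM, with no overlap (2.07 ± 0.29, adjusted p = 5.11e-06). NRXN2-AS-2 rose from 0.396, 0.0609, 0.468 and 0.347 CPM to 2.16, 0.627, 1.12 and 1.59 CPM, again with no overlap (2.17 ± 0.71, adjusted p = 0.0257). It did not pass without either E28 OSVZ, the second E28 ISVZ, the first E42 ISVZ or the second E42 OSVZ library (adjusted p 0.0650 to 0.159), and was 3.08 without the first E28 ISVZ. LINC-FLRT2-11 had a ratio of mean CPM of 5.75 (adjusted p = 0.0232) and did not pass without any 1 of the 4 E28 libraries or the first E42 OSVZ library (adjusted p 0.0522 to 0.0885). It was also high in the E42 VZ (2.1 CPM) and MZ (1.62 and 4.78 CPM). CNTNAP5-AS-9 was lower at E42 at the edge of the threshold (adjusted p = 0.0499). It had 0.743 CPM in the first E28 OSVZ library and 0.288, 0 and 0.116 CPM in the other 3. It passed in 2 of the 8 fits with 1 library left out, did not pass with the replicate block (adjusted p = 0.0810), in which LINC-FLRT2-6 was higher (adjusted p = 0.0278), and went from −3.27 to −0.61 without the first E28 ISVZ and to −2.34 without the first E28 OSVZ library. The count of 5 was 3 without either E28 ISVZ, either E28 OSVZ, the first E42 ISVZ or the second E42 OSVZ library.

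Between neuron-rich layers, the MZ was compared with the CP over the 3 stages, each weighted alike. Of the members, 2 were higher in the MZ and 4 lower, against 15% and 14.3% of all features, and the median was −0.02. The second list had 1 higher and 3 lower. CNTNAP5-AS-2 was higher in the MZ. It had 0.485 and 0.705 CPM there at E28, 0.333 and 0.498 CPM at E37 and 0.507 and 0.531 CPM at E42, and in the 11 plate libraries 0, 0.0820 and 0.405 CPM as lowest, median and highest (3.13 ± 0.68, adjusted p = 0.000743). It was called with each library left out, although it was at 0 in the undivided CP and both CPo libraries of E37, so that the fitted value depends on the prior count, and the ratio of mean CPM was 4.60.

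The remaining 5 calls between MZ and CP were each lost without some single library. With the replicate block all 6 passed, and so did LINC-LRRTM4-8 (−1.79, adjusted p = 0.00216) and NRXN2-AS-1 (−0.62, adjusted p = 0.0121), lower in the MZ, and NRXN3-AS-8 (adjusted p = 0.0396), higher. NRXN2-AS-3 was higher in the MZ (1.65 ± 0.57, adjusted p = 0.0290). It was lost without the first E28 MZ, second E28 CP, second of the E37 MZ, first E42 MZ or second E42 CPo library (adjusted p 0.0501 to 0.291), and was 2.27 without the first E28 CP library. CNTNAP3-AS-2 was lower, with 0, 0.387 and 0.564 CPM as lowest, median and highest of 6 MZ libraries and 0.216, 1.15 and 2.31 CPM in the plate (−1.60 ± 0.50, adjusted p = 0.0146). It did not pass without the first E28 CP library (−1.25, adjusted p = 0.0844) and was −3.52 without the second of the E37 MZ libraries. ADGRL2-AS-3, named after a latrophilin, had 0 to 0.705 CPM in the MZ and 0.164 to 2.35 CPM in the plate (−2.01 ± 0.67, adjusted p = 0.0217), and −1.03 (adjusted p = 0.335) without the second E28 CP library. It was also lost without the first E28 MZ, second of the E37 MZ or second E42 MZ library, and was −3.70 without the first of the E37 MZ libraries. CNTN5-AS-4 (−2.07 ± 0.73, adjusted p = 0.0338) was −1.48 (adjusted p = 0.167) without the second E28 CP library. It was lost as well without the first E28 MZ, first E37 CPi, second of the E37 MZ or second E42 MZ library, and was −3.86 without the second E28 MZ and −4.21 without the first of the E37 MZ libraries. LINC-SLITRK1-1 had a ratio of mean CPM of 0.328 (adjusted p = 0.0363) and was lost in 7 of the fits with 1 library left out. The number of calls fell from 6 to 3 without the second E28 CP or the second E42 MZ library and to 2 without the second of the E37 MZ libraries, and rose to 13 without the second E28 MZ library.

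The IZ differed from the CP in 5 members, 1 higher and 4 lower, against 10% and 9.57% of all features. The median was −0.35 (−0.31 at the floor), where LINC and AS features had 0.27 and all features 0.07, and the second list had 3 higher and 0 lower. NLGN4X-AS-2 had 0.0345, 0.492 and 1.22 CPM as lowest, median and highest of 7 IZ libraries and 0.164, 2.84 and 4.40 CPM in 11 plate libraries. Its log2 fold change of −1.72 ± 0.39 (adjusted p = 0.00155) passed with any library left out. SLITRK3-AS-1 had 2.03, 3.58 and 5.89 CPM in the IZ and 1.05, 11.5 and 15.7 CPM in the plate (−0.78 ± 0.20, adjusted p = 0.00484). At E28 its level in the IZ, 2.03 and 2.14 CPM, lay within that of the CP, 2.38 and 1.05 CPM, and without the first E28 CP library it did not pass (−0.56, adjusted p = 0.0590). LINC-FLRT2-6 had at most 0.0591 CPM in the IZ and up to 0.419 CPM in the plate, with a ratio of mean CPM of 0.0896 (adjusted p = 0.0259), and the fitted value was −1.93 (adjusted p = 1) without the second E28 CP library. It was lost too without either E28 IZ or either E42 IZ library (adjusted p 0.0528 to 0.0792). FLRT2-AS-1 (−0.81 ± 0.28, adjusted p = 0.0435) and CNTNAP5-AS-2, which was higher in the IZ (1.92 ± 0.67, adjusted p = 0.0423), did not pass in 13 and 12 of the 18 fits with 1 library left out, and CNTNAP5-AS-2 not with the replicate block (1.79, adjusted p = 0.0651). CNTNAP5-AS-2 had 0.0432 to 0.629 CPM in the IZ and 0 to 0.405 CPM in the plate. With the undivided CP and the CPo of E37 at 0, its fitted value depends on the prior count. FLRT2-AS-1 also did not pass with DESeq2's size factors or with a library size that omits the 20 features of most counts (−0.77 in both). With the replicate block, CNTNAP3-AS-2 (−1.30, adjusted p = 0.0204), LINC-LRRTM4-8 (−1.23, adjusted p = 0.0289) and TENM2-AS-4 (adjusted p = 0.0412) were lower in the IZ as well. The count of 5 was 2 without either E28 IZ or the second E28 CP library.

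**Figure D5:**
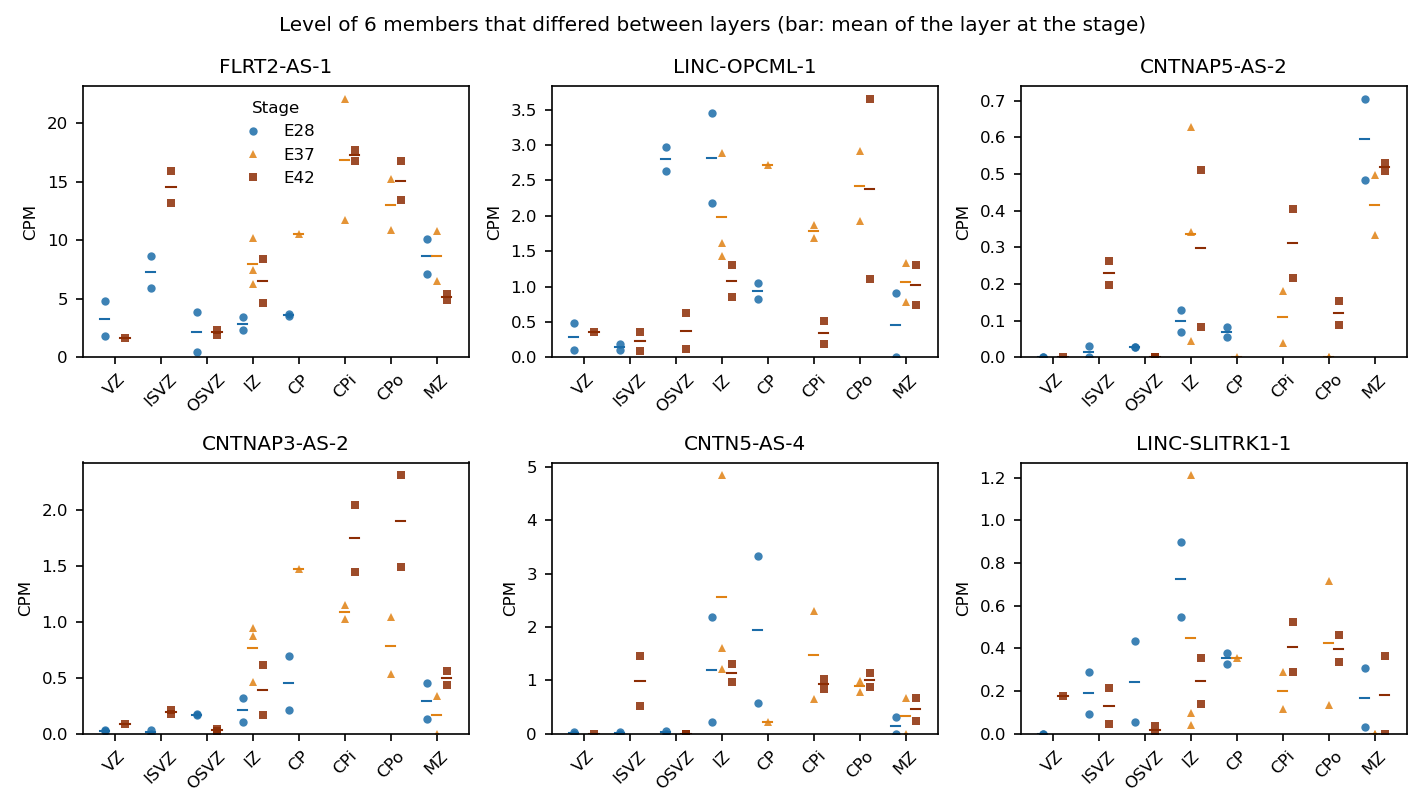
Level in CPM (y axis) of 6 members that differed between layers, in each of the 35 libraries by layer (x axis), with symbol and color for stage and a bar at the mean of each layer and stage. CNTNAP5-AS-2 is high in the MZ at all stages (0.333 to 0.705 CPM), FLRT2-AS-1 separates the E42 ISVZ (13.2 and 15.9 CPM) from the OSVZ (1.93 and 2.34 CPM), and LINC-OPCML-1 separates the E28 OSVZ (2.63 and 2.97 CPM) from the ISVZ and VZ.

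The 2 subventricular zones differed in 1 member at each stage. At E28, 3.78% of all features were higher in the OSVZ and 5.15% lower. LINC-OPCML-1, named after an IgLON molecule, had 2.97 and 2.63 CPM in the OSVZ, 0.108 and 0.183 CPM in the ISVZ and 0.478 and 0.0989 CPM in the VZ (OSVZ minus ISVZ 4.22 ± 1.04, adjusted p = 0.00759). The IZ, at 3.45 and 2.18 CPM, reached the level of the OSVZ, and the CP, at 0.820 and 1.05 CPM, lay between. The call was lost without either ISVZ library (3.91, adjusted p = 0.107, and 4.65, adjusted p = 0.0741) and 2 members passed without the first OSVZ library. With the replicate block 4 members passed, with FLRT2-AS-1 lower in the OSVZ (−1.95, adjusted p = 0.00863) and LINC-LRRTM4-8 (adjusted p = 0.0138) and NRXN2-AS-1 (1.10, adjusted p = 0.0473) higher. The second list had 1 higher, and the median of the 65 was 0.

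At E42, 0.477% of all features were higher in the OSVZ and 0.298% lower. FLRT2-AS-1 had 1.93 and 2.34 CPM in the OSVZ and 13.2 and 15.9 CPM in the ISVZ (−2.76 ± 0.58, adjusted p = 0.0161), and 1.66 CPM in the VZ. At E28 the order was the same, with 3.85 and 0.463 CPM in the OSVZ and 8.69 and 5.94 CPM in the ISVZ. The plate of E42, at 13.4 to 17.7 CPM, overlapped with the ISVZ. The call was lost without any 1 of the 4 libraries, at −2.91 to −2.62 and adjusted p from 0.0654 to 0.236, and DESeq2 called CNTN5-AS-4 as well. The median of the members was −1.19 (−0.85 with 22 members at 0 on one side set to the floor), against −0.14 for LINC and AS features and −0.01 for all features, and 15 of the 65 had a value above 0. The second list had a median of −0.15 and 0 calls.

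No member differed between the outer and the inner CP over E37 and E42, in edgeR or DESeq2. An unadjusted p under 0.05 was found for 3 members in either. Among all features 0.238% were higher in the CPo and 0.737% lower, and the second list had 0 calls. The comparison rests on 4 libraries a side, and SLITRK3-AS-1, for example, had 12.0, 15.7, 12.2 and 14.3 CPM in the CPo and 9.96, 8.61, 11.5 and 12.1 CPM in the CPi.

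Members that share a gene name were compared over the 35 libraries by Pearson's correlation of log2(CPM + 0.1), as a description, since the libraries share layers, stages and depth. The pair most alike was SLITRK3-AS-1 and LINC-SLITRK3-1 (r = 0.85). It was followed by NLGN4X-AS-2 and LINC-NLGN4X-2 (r = 0.69), FLRT2-AS-1 with LINC-FLRT2-10 and with LINC-FLRT2-6 (r = 0.67 each), TENM2-AS-4 and LINC-TENM2-9 (r = 0.66), and LRRTM4-AS-4 and LINC-LRRTM4-8 (r = 0.61). A shared name did not always go with a shared pattern. NRXN2-AS-1 had r = 0.60 with NRXN2-AS-2 but 0.01 with NRXN2-AS-3 and 0.00 with NRXN2-AS-4. Nothing in the counts tells whether features of a name are parts of 1 transcript.

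Libraries with the same replicate number differed together in some members. At E28, LRRTM4-AS-4 and ADGRL2-AS-3 were higher in the second library of all 6 layers and NRXN2-AS-1 in the first. LRRTM4-AS-4 had 0.820 against 12.0 CPM in the CP, 1.68 against 2.69 CPM in the IZ and 1.82 against 14.2 CPM in the MZ, and NRXN2-AS-1 had 22.0 against 6.44 CPM, 15.3 against 9.29 CPM and 14.2 against 2.87 CPM. These were 3 of the 65 tested members (4.62%), against 7.5% of LINC and AS features and 15.8% of all features. At E37, 7 members (10.8%) had the same sign over 4 layers, against 12% of LINC and AS features and 25.7% of all features. At E42 they were 4 members (6.15%) over 6 layers, against 4.51% and 9.28%. Some features have the same sign in every layer without a common shift, and whether the members exceed that number was not tested. Whether the number stands for an embryo is not stated by the labels.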

How the data were processed

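The authors prepared poly(A) mRNA libraries, trimmed adapters, mapped the reads with HISAT to the tree shrew genome and counted them with HTSeq-count on the TS_3.0 annotation. The deposited values are raw integer counts per feature. HISAT2, SAMtools and HTSeq are named in the submitters' processing notes, and the strand setting is not given in the sources used here. The 5 summary lines of each file were left out of library sizes and tests. Coordinates and sequences of the features were not used here, and 0 of 76871 identifiers matched a RefSeq gene table of the TupChi_1.0 assembly, in which 33 of the 35 member symbols occur as protein-coding genes.

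Counts of 35 libraries were fitted in edgeR 4.0.16 (R 4.3.3, limma 3.58.1) with a mean for each of 18 groups, TMM scaling, filterByExpr with a minimum count of 10 (26858 features left), estimateDisp and robust quasi-likelihood tests with 17 residual degrees of freedom. The common biological coefficient of variation was 0.378. Standard errors are the absolute log2 fold change over the square root of F, and p-values were adjusted over all features in each of 11 comparisons. The script was tested on simulated data. The CP of E37 weighted its 5 libraries alike, and that of E42 was the mean of CPi and CPo. Where a layer had 0 counts, the ratio of mean CPM is given in most cases, since the fitted value depends on the prior count. Means in these ratios are over all libraries of a side, so layers with more libraries weigh more than in the fit. DESeq2 1.42.0 gave an alternative test. Floors cover counting error only, as PCR copies cannot be told from molecules.

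Results of 1 member are not reported here. The members, the second list and the comparisons were chosen with earlier results of these data known. Named in the text were, for each comparison, at most 5 called members in each direction with the smallest adjusted p, the tested member of each name group with the highest mean CPM, and the 5 highest of all; other members were named after their values were seen. Libraries with the same replicate number deviated together from their group means in 15 of 15 pairs of layers at E28 (r 0.167 to 0.265) and 6 of 6 at E37 (0.147 to 0.272), each above 0.1, so the number was taken to pair them there. The labels do not say what it marks. The main fit treated all libraries as independent. The replicate block was set within each stage. In comparisons between stages it took the shared deviation out of the error, so whether a stage difference exceeded that deviation was not tested.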

Additional observations from a re-analysis of the deposited data

Results flagged for a closer look

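The difference between neuron-rich and germinal layers was itself different at E28 and E42 for the 3 members described here, by the interaction term of the edgeR quasi-likelihood fit. NLGN4X-AS-2 changed by 4.28 on the log2 scale (adjusted p = 1.01e-05), from a mean of 0.166 CPM in neuron-rich and 1.25 CPM in germinal libraries at E28 to 2.45 and 0.665 CPM at E42. SLITRK2-AS-1 changed by 4.35 (adjusted p = 0.000208), from 0.209 and 1.53 CPM at E28, and was 5.74 without the second E28 CP library and 5.00 without the E42 VZ library. NRXN2-AS-2 changed by −3.50 (adjusted p = 0.00507), with −2.87 to −4.27 when single libraries were left out (−2.87 without the first E28 IZ, −4.27 without the first E28 VZ and −4.11 without the first E28 ISVZ library). Neuron-rich levels of NRXN2-AS-2 were 0.311 to 2.00 CPM at E28 and 0.338 to 1.73 CPM at E42. Its germinal levels were 0 to 0.468 CPM at E28 and 0.627 to 2.16 CPM at E42, with 0.948 CPM in the VZ. E28 and E42 also differ in that the VZ of E42 is 1 library. With the replicate number as a block, the 3 values were 4.17 (adjusted p = 5.54e-06), 4.29 (adjusted p = 3.57e-05) and −3.41 (adjusted p = 0.00146).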

How the results depend on the processing

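Of 43 named results, 35 kept their direction and their side of the threshold in every alternative for which they had a value, and 22 of them also with each library left out; 0 of the values turned in direction. Counts of called members that moved by more than 1.5 times were as follows. Restricting the fit to the groups of a comparison gave 20 in place of 12 between neuron-rich and germinal layers at E42, 6 in place of 11 from E28 to E37 and 3 in place of 1 between OSVZ and ISVZ at E42. Without the filter on low counts there were 5 in place of 3 from E37 to E42, and 3 in place of 1 between OSVZ and ISVZ at E28 and again at E42. DESeq2 gave 4 and 2 for these zones at E28 and E42, as did the replicate block. With the repeated E42 VZ file kept in its labelled group, 3 in place of 5 passed between the subventricular zones of E28 and E42, and 3 of 5 between IZ and CP had an absolute log2 fold change above 1. The cause was not tested. The other counts, and all of those with other size factors or without the 20 most abundant features in the library size, stayed within 1.5 times.

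With 1 library left out, counts ranged from 13 to 20 (neuron-rich against germinal, E28), 10 to 12 (E42), 3 to 6 (their difference), 7 to 12 (E28 to E37), 1 to 4 (E37 to E42), 3 to 4 (subventricular zones), 2 to 13 (MZ against CP), 2 to 5 (IZ against CP), 0 to 2 and 0 to 0 (OSVZ against ISVZ, E28 and E42) and 0 to 0 (CPo against CPi). These fits kept the dispersions and features of the full fit, and a lone library was assumed to vary like the other groups. At E42, same-numbered libraries deviated together, with r above 0.1, in 10 of 15 pairs of layers (r −0.117 to 0.232). The pairs that did not were those with the OSVZ (r −0.117 to 0.062), whereas pairs among the other layers had r 0.13 to 0.232. The block paired the OSVZ libraries by number as well. It gave 15 in place of 12 calls between neuron-rich and germinal layers. Other scalings moved the median of all features by at most 0.066 on the log2 scale. CNTNAP5-AS-9 between the subventricular zones was removed by the filter when only the groups compared were fitted and has no value there. The replicate block ended no calls beyond those given with the results, and the calls it added are named there, apart from LINC-TENM2-21 and LRRTM4-AS-4 (neuron-rich against germinal, E42) and CNTN5-AS-4 (OSVZ against ISVZ, E42). Of the 341 members, 65 had enough counts to be tested at this depth; whether more depth would add others was not tested.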
